A study of Mus musculus with 4 samples.

Results

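The genes described here are 50 genes of the cell division cycle, chosen by name with earlier results of these data known. All 50 were found among the 21462 genes of the deposited expression table. They were measured by RNA sequencing in smooth muscle cells (SMCs) sorted from mouse lung, in 2 libraries from *Tet3* mutant and 2 from control C57BL/6 mice. The mutants carried a floxed *Tet3* allele (Tet3 fl/fl), a tamoxifen-inducible Cre recombinase driven by the smooth muscle actin promoter (α-SMA ERT2Cre) and a tdTomato reporter at ROSA26. Controls lacked the floxed allele but carried the Cre and/or the reporter, so that Cre or reporter alleles were shared between the groups. Tamoxifen was injected daily from young adulthood, and the age at collection was not given in the labels. TET3 oxidizes 5-methylcytosine in DNA to 5-hydroxymethylcytosine, and the comparison asks which transcripts differ in SMCs that lost it. The α-SMA promoter is also used by cells other than SMCs, such as pericytes and myofibroblasts, and the sort took living tdTomato-positive cells after depletion of blood cells. By the study's legends the RNA-seq came from 2 independent animals a group, so p-values measure the spread between these 4 libraries.

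A dividing cell passes through G1, when D-type cyclins with Cdk4 or Cdk6 start to phosphorylate the RB protein, then through S phase, when DNA is copied, and through G2 into mitosis. Phosphorylation of RB frees E2F transcription factors, which switch on genes of DNA replication. Later the genes of mitosis are released from repression by the DREAM complex, which acts through the cell cycle genes homology region (CHR), and are activated by B-Myb and Foxm1. In the healthy adult lung most SMCs are in a resting state outside this cycle.

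Promoter sequences are shown first for 6 members, because letters of 3 known promoter elements were shared by many of the 50 genes. RefSeq promoter windows on GRCm38.p6, from 250 bases before to 50 bases after the transcription start, were matched to 39 members. Windows were not matched for *Ccna2*, *Kif20a*, *Smc4*, *Ccne2*, *Tpx2*, *Ccnd2*, *Mcm4*, *Aurkb*, *Cdc25c*, *Ccnd1* and *Foxm1*. The letters searched on both strands were TTTGAA and TTTAAA for the CHR, CCAAT for the CCAAT box, and TTTGGCGC, TTTCGCGC, TTTGCCGC, TTTCCCGC and GCGGGAA for E2F, of which the last overlaps TTTCCCGC when read on the other strand. The lines below give the 150 bases before the start, 5′ to 3′ on the strand of the gene, with every match on either strand in capitals. A match on the other strand reads as its reverse complement, TTCAAA for the CHR and ATTGG for the CCAAT box. Matches that overlap run together. *Mki67*, *Top2a*, *Ccnb2* and *Kif11* are examples of genes of G2 and mitosis, and *Mcm6* and *Pola1* of genes of DNA replication.
Mki67: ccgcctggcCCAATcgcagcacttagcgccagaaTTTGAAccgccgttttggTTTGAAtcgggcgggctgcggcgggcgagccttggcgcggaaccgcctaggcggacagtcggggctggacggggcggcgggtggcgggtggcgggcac
Top2a: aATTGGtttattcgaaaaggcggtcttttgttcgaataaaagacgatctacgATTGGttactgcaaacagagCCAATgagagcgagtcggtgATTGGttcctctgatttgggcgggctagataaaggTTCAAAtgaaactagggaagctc
Ccnb2: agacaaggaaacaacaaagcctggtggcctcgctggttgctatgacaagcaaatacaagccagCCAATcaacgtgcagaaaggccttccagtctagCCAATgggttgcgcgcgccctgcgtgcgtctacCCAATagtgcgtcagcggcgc
Kif11: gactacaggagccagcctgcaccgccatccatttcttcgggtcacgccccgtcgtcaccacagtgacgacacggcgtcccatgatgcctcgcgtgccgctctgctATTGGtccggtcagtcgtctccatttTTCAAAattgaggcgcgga
Mcm6: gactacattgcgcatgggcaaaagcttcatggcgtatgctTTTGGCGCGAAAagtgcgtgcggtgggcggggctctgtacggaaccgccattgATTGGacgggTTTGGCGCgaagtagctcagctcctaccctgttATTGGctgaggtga
Pola1: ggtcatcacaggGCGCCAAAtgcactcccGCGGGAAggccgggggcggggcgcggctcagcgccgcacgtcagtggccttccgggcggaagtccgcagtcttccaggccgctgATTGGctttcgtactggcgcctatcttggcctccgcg
The windows lie at chr7:135716380-135716529 on the minus strand for *Mki67*, chr11:99024190-99024339 on the minus strand for *Top2a* and chr9:70421555-70421704 on the minus strand for *Ccnb2*. They lie at chr19:37376232-37376381 on the plus strand for *Kif11*, chr1:128359706-128359855 on the minus strand for *Mcm6* and chrX:93632156-93632305 on the minus strand for *Pola1*. None of the 6 overlaps an exon of the GENCODE M21 annotation of the same build. In *Kif11* a CCAAT box and a CHR lie next to each other shortly before the start, and *Top2a* has a CHR at a like distance, downstream of several CCAAT boxes. *Mki67* has its CHR letters farther upstream, and *Ccnb2* holds CCAAT boxes here and its nearest CHR letters just beyond the start, outside the bases shown. *Mcm6* and *Pola1* have E2F letters and CCAAT boxes and no CHR letters. Other members of these roles differed from the examples. The windows of *Mcm2*, *Mcm5* and *Rrm2* held CHR letters, and those of *Bub1* and *Nusap1* held none.

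CHR letters were found in 24 of the 39 members with a window (61.5%), against 30.6% of the 27025 genes with a window. E2F letters were found in 11 members (28.2%) against 6.54% of all genes, and CCAAT boxes in 31 (79.5%) against 41.1%. A CHR together with a CCAAT box was found in 21 members (53.8%) against 13.4% of all genes. The remaining 5 members with a window held none of these letters. A match of letters describes the window and does not show that a factor binds there.

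The 4 libraries were of similar depth, and 3 properties of them bear on what follows. Deposited normalized counts, scaled between libraries and rounded by the authors, summed to between 6805272 and 7164573 per library, and reads assigned to genes were estimated at 6.32 M to 7.56 M. *Tet3* stood at 1847 and 1926 normalized counts in the controls and 1534 and 1444 in the mutants (log2 fold change -0.34 ± 0.10 SE, limma unadjusted p = 0.0185, adjusted p = 0.681), so that the targeted gene was lower in both libraries labelled as mutant. The count covers the whole gene and not the floxed exons alone. Control replicate 2 stood apart, with 2 normalized counts of *Xist* against 5214 to 6781 in the other libraries, and a sum of 2252 over 4 Y-linked genes against 0 to 3. By these sex-linked genes the controls differed from each other, while both mutants were like control replicate 1. The labels give no sex. Smooth muscle markers were present throughout, with no marker of the list at 0 and sums over 10 markers of 10762 and 11305 in the controls and 12895 and 11870 in the mutants. Markers of other lung cells were also abundant. Sums over 8 fibroblast markers were 26523 and 22771 in the controls and 28075 and 24826 in the mutants. Those over 10 endothelial markers were 15119 and 14690 against 16142 and 15671. Both lists summed to more than the smooth muscle list in every library. Sums over 10 alveolar type 2 markers were 17366 and 25984 in the controls and 12067 and 15677 in the mutants. Sums over 15 macrophage markers were 8947 and 8118 against 9886 and 11301. Since these are bulk libraries, more dividing cells and more cell cycle RNA per cell cannot be told apart, nor can the cell type that held the transcripts.

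Transcripts of the members covered a wide range of levels. Measured per exon length, as normalized counts per kilobase of exon averaged over the 2 libraries of a group, cyclin D1 (*Ccnd1*) was the highest member, at 227 in the controls and 209 in the mutants, above 92.6% of all genes tested. *Smc4* stood at 124 in the controls and 142 in the mutants, *Mcm4* at 124 and 136, *Ccnd2* at 116 and 144 and *Cdk4* at 110 and 114. The lowest members on this scale were *Cdc25c*, at 1.42 in both groups, the mitotic cyclin *Ccnb1*, at 2.49 and 4.03, and *E2f7*, at 2.55 and 3.33. *Mki67*, the gene of the Ki-67 antigen that is used to count cycling cells, stood at 82.1 and 97.5 per kilobase, above 66.8% of all genes. The plot of levels by role shows the mitotic kinases and most kinetochore genes about an order of magnitude below *Ccnd1*, while the E-type cyclins, which act at the end of G1, are lower still.

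**Figure D1:**
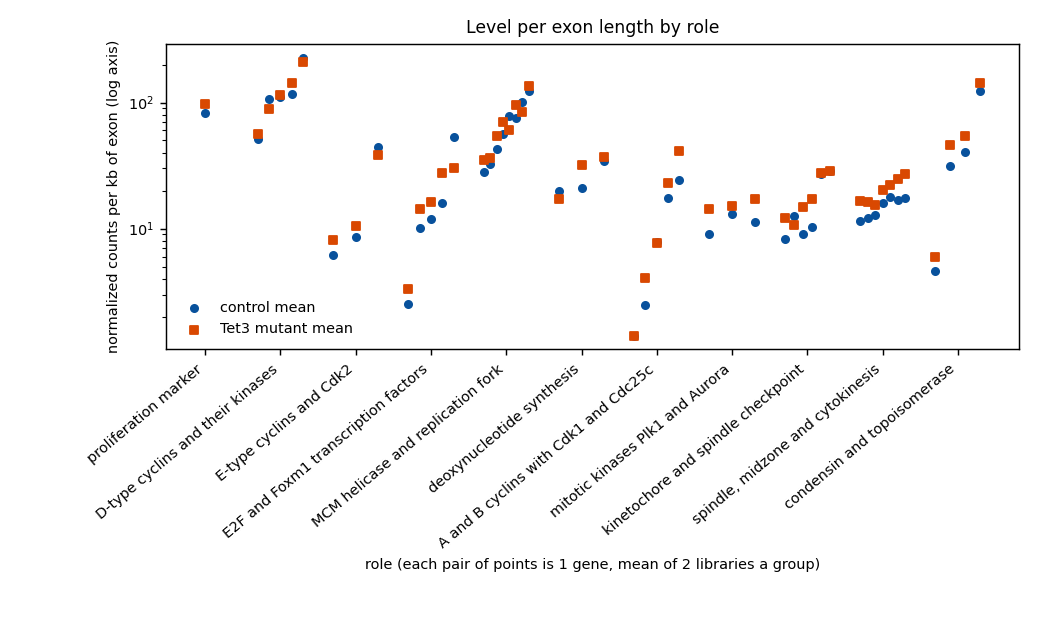
Level of each of the 50 genes in normalized counts per kilobase of exon (log axis), grouped by role along the horizontal axis. Circles are means of the 2 control libraries and squares means of the 2 *Tet3* mutant libraries; *Ccnd1* is highest at 227 and 209, and *Cdc25c* lowest at 1.42 in both groups.

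Of the 50 members, 49 had a mean of at least 10 normalized counts and were tested; *Cdc25c*, a phosphatase that activates Cdk1, stood at 6 and 8 in the controls and 7 and 7 in the mutants and was not. No member passed an adjusted p of 0.05 in limma's test over all 16659 genes tested, where 0 genes passed (0.0%) and 1112 had an unadjusted p under 0.05. The smallest adjusted p among members was 0.681. At an unadjusted p under 0.05, 3 of 49 members were higher in the mutants (6.12%, against 3.83% of all genes) and 0 were lower (0.0%, against 2.85%). In direction, 38 of the 49 had a log2 fold change above 0 (77.6%, against 49.0% of all genes), with a median of 0.31 against -0.01 over all genes. Both mutant libraries lay above both controls in 25 members (51.0%, against 19.6% of all genes) and below both in 4 (8.16%, against 19.5%). Since the members were named with earlier results of these data known, these shares are descriptions only.

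This tilt was carried to a large extent by 1 library. Tet3 mutant replicate 2 alone held the highest value in 37 of the 49 members tested (75.5%, against 22.4% of all genes). Control replicate 2 alone held the lowest in 24 of the 49, against 5506 of the 16659 genes tested, where it was also the library most often lowest. Mutant replicate 2 was above mutant replicate 1 in 42 of 49 members, against 8566 of the 16659 genes tested. Over the members the median log2 difference between the 2 mutant libraries was 0.32, which was as large as the median difference between the groups. Over all genes the 2 control libraries lay farther apart than the 2 mutant libraries, with median absolute log2 differences of 0.28 and 0.18, while over the members the order was turned, at 0.21 and 0.33. Without mutant replicate 2 the members' median log2 fold change was 0.15 with 33 of 49 above 0, and without mutant replicate 1 it was 0.49 with 44 above 0. Leaving out control replicate 1 or control replicate 2 gave medians of 0.34 and 0.24.

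**Figure D2:**
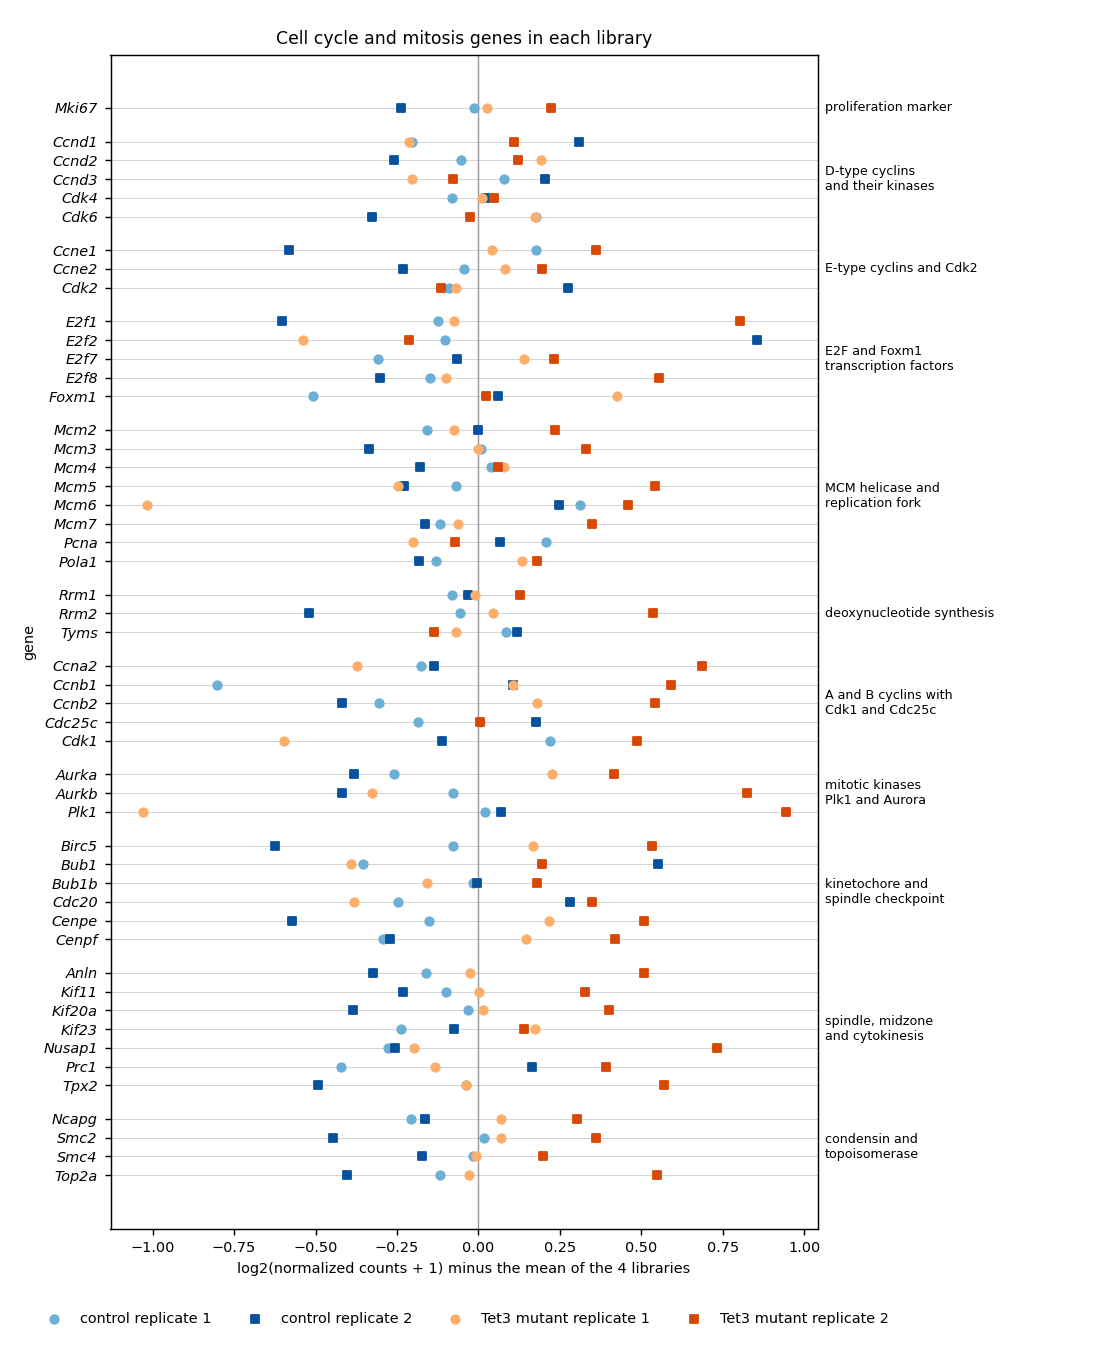
Each of the 50 genes in the 4 libraries, as log2(normalized counts + 1) minus the gene's mean over the 4 libraries (horizontal axis), grouped by role. Mutant replicate 2 (dark squares in orange) is the rightmost point in 37 of the 49 genes tested, while mutant replicate 1 stands far left in *Mcm6* and *Plk1*.

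The machinery of G1 gave values that went in both directions. *Ccnd2*, a D-type cyclin, stood at 1169 and 1013 normalized counts in the controls and 1384 and 1319 in the mutants (log2 fold change 0.31 ± 0.12 SE, limma unadjusted p = 0.0449, adjusted p = 0.681). It is 1 of the 3 members under 0.05 before adjustment, and the only one of them that was higher in mutant replicate 1 than in mutant replicate 2. *Ccnd3*, its paralog, went the other way without overlap, at 900 and 981 in the controls and 740 and 807 in the mutants (-0.28 ± 0.11, unadjusted p = 0.0561). *Ccnd1* overlapped between the groups, with 881 and 1257 in the controls and 876 and 1094 in the mutants; 23.4% of its exon bases overlap a gene on the opposite strand, and whether strand was used in counting was not stated. Their kinases were close to level: *Cdk4* stood at 344 and 370 against 367 and 376, with 19.7% of its exon bases overlapping *Tspan31* on the other strand, and *Cdk6* at 845 and 596 against 844 and 734. *Cdk2*, the kinase that E-type cyclins activate at the entry into S phase, stood at 240 and 310 in the controls and 244 and 236 in the mutants. The E-type cyclins *Ccne1* and *Ccne2* were low, between 12 and 32 in the controls and between 19 and 38 in the mutants.

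Among the transcription factors of the cycle, *E2f1*, which activates replication genes, stood at 59 and 42 in the controls and 61 and 113 in the mutants (log2 fold change 0.73 ± 0.40). The groups did not overlap, but mutant replicate 1 was within 2 normalized counts of control replicate 1. *E2f2*, a second activator, was lower in the mutants, at 176 and 343 against 130 and 163 (-0.75 ± 0.35), with control replicate 2 far above the other 3 libraries. *E2f8*, which like *E2f7* represses E2F targets late in the cycle, stood at 58 and 52 against 60 and 95, and *E2f7* ranged from 21 to 25 in the controls and 29 to 31 in the mutants. *Foxm1*, an activator of mitotic genes, stood at 55 and 82 in the controls and 106 and 80 in the mutants, and is 1 of the 7 members that were higher in mutant replicate 1 than in replicate 2. Fold changes of 4 of the 5 factors were above 0 (49.0% of all genes were), with a log2 median of 0.45 that came to 0.25 without control replicate 1 and 0.29 without mutant replicate 2.

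The 8 genes of the MCM helicase and the replication fork, which unwind and copy DNA, had log2 fold changes with a median of 0.22, which came to 0.04 without mutant replicate 2. *Mcm3* stood at 319 and 251 in the controls and 317 and 399 in the mutants, *Mcm7* at 255 and 247 against 265 and 353, and *Mcm2* at 213 and 238 against 226 and 280. In these 3 helicase subunits mutant replicate 1 was within the range of the controls or just above it, and mutant replicate 2 was highest. *Mcm4* was higher in both mutants by a small margin, at 478 and 411 against 491 and 485, and *Mcm5* stood at 179 and 160 against 158 and 274. *Mcm6*, the subunit whose promoter is shown above, had 374 and 357 normalized counts in the controls, 148 in mutant replicate 1 and 414 in mutant replicate 2. The log2 fold change of -0.56 ± 0.48 became 0.18 without mutant replicate 1 and -1.30 without mutant replicate 2. The low value was thus that of 1 library, and the other helicase subunits did not share it; in the same library 67 of 10888 genes with a mean of at least 100 lay below 0.5 of the lowest other library, and *Mcm6* was the only member among them. *Pola1*, the catalytic subunit of the polymerase that primes replication, was higher in both mutants, at 252 and 243 against 303 and 313 (0.31 ± 0.14, limma unadjusted p = 0.0688), with small differences within each group. *Pcna*, the sliding clamp of the polymerases, was lower in both, at 256 and 232 against 193 and 211 (-0.27 ± 0.16).

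Deoxynucleotide synthesis was equally mixed. *Rrm2*, the subunit of ribonucleotide reductase that is made in S phase, stood at 68 and 49 in the controls and 73 and 103 in the mutants (log2 fold change 0.58 ± 0.32). *Rrm1*, its larger partner, stood at 372 and 385 against 391 and 430. *Tyms*, which makes thymidylate, was lower without overlap, at 119 and 122 against 107 and 102 (-0.20 ± 0.20). The 4 members that were lower in both mutants without overlap (8.16%, against 19.5% of all genes) are *Ccnd3*, *Pcna*, *Tyms* and *E2f2*. None of these is a gene of mitosis, but 7 of 62 mitosis genes outside the members were lower in both without overlap.

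The mitotic cyclins and kinases were low in number and showed the widest gap between the 2 mutant libraries. *Ccnb2*, a B-type cyclin, stood at 39 and 36 normalized counts in the controls and 55 and 71 in the mutants (log2 fold change 0.72 ± 0.30, limma unadjusted p = 0.0607, adjusted p = 0.681), and both mutants were higher. *Ccna2*, the cyclin of S phase and G2, stood at 70 and 72 in the controls, 61 in mutant replicate 1 and 128 in mutant replicate 2, so that the groups overlapped; 12.5% of its exon bases overlap *Exosc9* on the opposite strand. *Ccnb1* ranged from 7 to 14 in the controls and 14 to 20 in the mutants, and *Cdk1*, the kinase that drives entry into mitosis, from 34 to 43 and from 24 to 52. *Plk1*, a kinase of mitotic entry and exit, ranged from 28 to 29 in the controls and from 13 to 54 in the mutants, the largest gap between the mutant libraries of any member (1.97 on the log2 scale). *Aurkb*, the kinase of the chromosomal passenger complex, ranged from 29 to 37 and from 31 to 70. *Aurka*, the centrosomal Aurora kinase, ranged from 22 to 24 in the controls and from 34 to 39 in the mutants and did not overlap (0.64 ± 0.34). Over *Plk1* and the 2 Aurora kinases the median log2 difference between the mutant libraries was 1.15, and the median fold change of 0.50 turned to -0.08 without mutant replicate 2.

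Of the 6 genes of the kinetochore and spindle checkpoint, 2 had an unadjusted p under 0.05, as did 6.68% of all genes. *Cenpe* (ENSMUSG00000045328, chromosome 3, 135212537 to 135273611) encodes the kinesin that moves chromosomes to the spindle equator. It stood at 102 and 76 normalized counts in the controls, against 132 and 162 in the mutants. The fitted difference was 0.73 ± 0.25 SE on the log2 scale (limma unadjusted p = 0.0347, adjusted p = 0.681). *Cenpf* (ENSMUSG00000026605, chromosome 1, 189640606 to 189688086), a large kinetochore and nuclear matrix protein made in G2, stood at 126 and 128 against 171 and 207 (0.56 ± 0.19, unadjusted p = 0.0318, adjusted p = 0.681). In both genes each mutant library was above each control, and the order of the mutant libraries was that of most members. With 1 library left out at a time their fold changes stayed between 0.52 and 0.94 for *Cenpe* and between 0.42 and 0.70 for *Cenpf*. The checkpoint genes proper did not share this: *Bub1* stood at 38 and 72 against 37 and 56, and *Bub1b* at 116 and 117 against 105 and 133. *Cdc20*, the activator of the ubiquitin ligase that ends the checkpoint, stood at 44 and 64 against 40 and 67. *Birc5*, survivin of the passenger complex, ranged from 25 to 37 in the controls and from 44 to 57 in the mutants without overlap (0.70 ± 0.36).

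All 7 genes of the spindle, its midzone and cytokinesis had log2 fold changes above 0, with a median of 0.42 that came to 0.22 without mutant replicate 2. In 5 of the 7 both mutants lay above both controls, as in 19.6% of all genes. *Kif11*, the motor that pushes spindle poles apart, stood at 124 and 113 in the controls and 133 and 167 in the mutants, and *Kif23*, a motor of the midzone, at 133 and 149 against 177 and 173. *Anln*, the contractile ring scaffold anillin, stood at 111 and 99 against 122 and 177 (0.48 ± 0.26). *Nusap1*, which bundles spindle microtubules, stood at 71 and 72 in the controls, 75 in mutant replicate 1 and 144 in mutant replicate 2. Mutant replicate 1 lay close to the controls in *Kif11*, *Anln* and *Nusap1*, and mutant replicate 2 lay above. *Kif20a*, another midzone motor, stood at 59 and 46 against 61 and 80, with 29.3% of its exon bases overlapping *Cdc23* on the opposite strand. *Tpx2*, the activator of Aurora A on the spindle, stood at 92 and 67 against 92 and 141, and *Prc1*, the midzone bundling protein, at 85 and 128 against 104 and 150. These last 2 genes overlapped between the groups, *Tpx2* by a tie at 92.

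The 3 condensin subunits and topoisomerase IIα, which compact and untangle chromosomes, were higher in both mutants without overlap in 4 of 4 genes, as were 19.6% of all genes. Their log2 fold changes had a median of 0.40, which came to 0.24 without mutant replicate 2. *Top2a* stood at 311 and 255 normalized counts in the controls and 331 and 494 in the mutants (0.52 ± 0.24, limma unadjusted p = 0.0791). *Smc2* stood at 256 and 185 against 265 and 325, *Smc4* at 681 and 611 against 686 and 792, and *Ncapg* ranged from 32 to 33 and from 39 to 46. The margin rested on few counts for mutant replicate 1, which exceeded control replicate 1 by 9 in *Smc2* and by 5 in *Smc4*. *Mki67* (ENSMUSG00000031004, chromosome 7, 135689784 to 135716361) showed the same order, at 890 and 762 in the controls and 915 and 1047 in the mutants (0.25 ± 0.14, unadjusted p = 0.126, adjusted p = 0.689). Its mutant mean of 981 ± 93.3 (SD, n = 2) and control mean of 826 ± 90.5 (SD, n = 2) differ by less than 2 of these SDs.

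**Figure D3:**
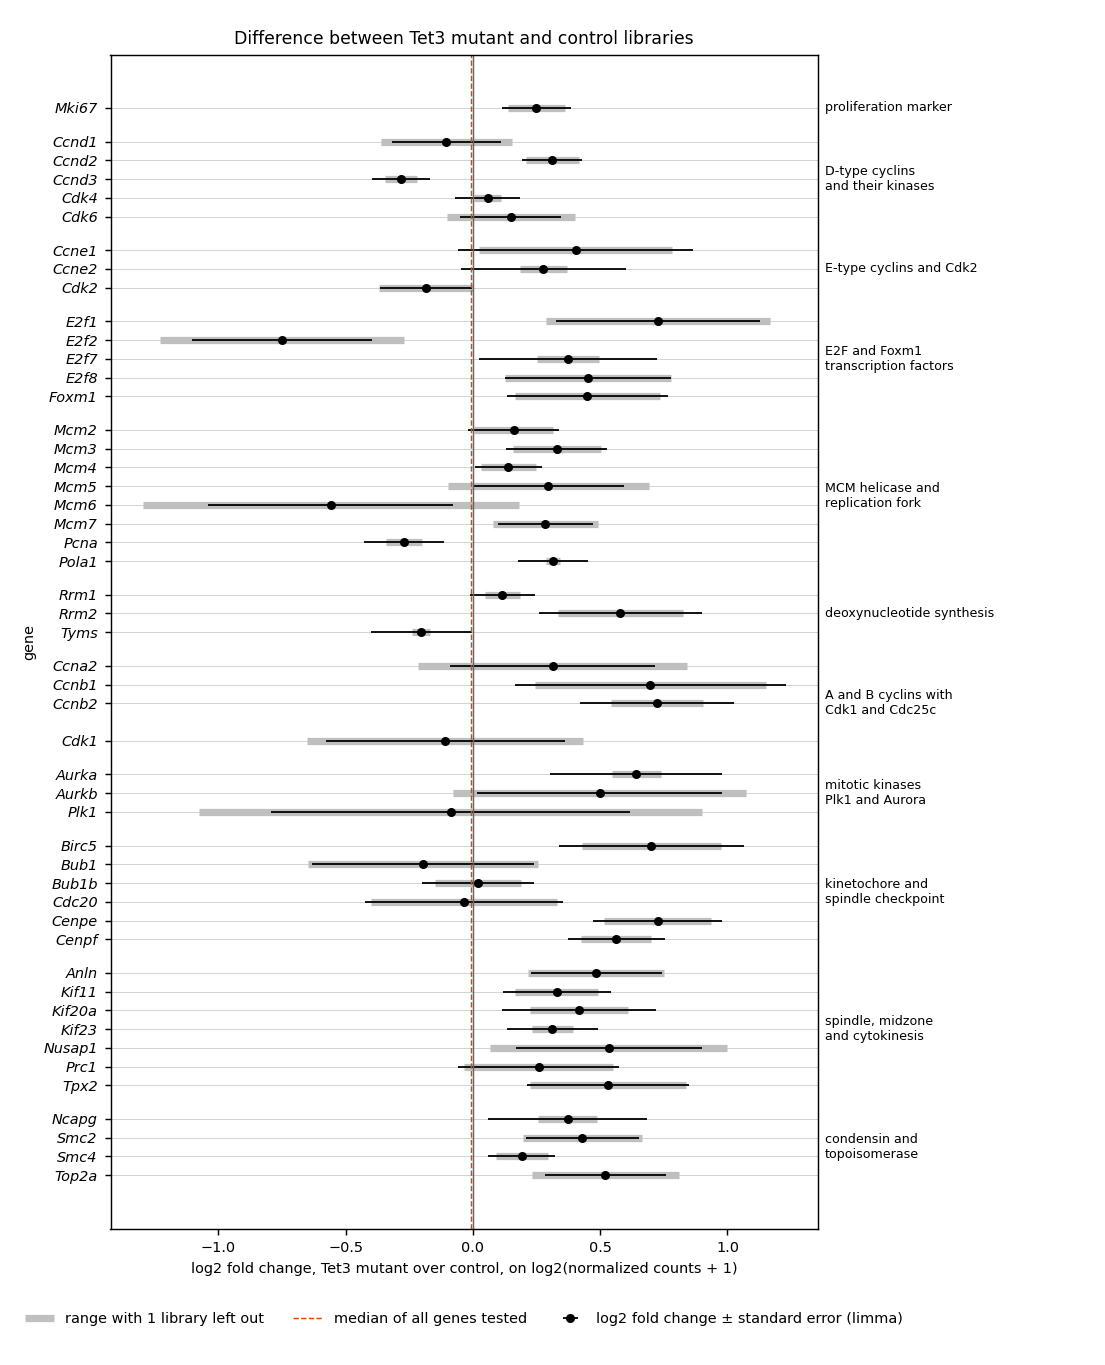
Log2 fold change of *Tet3* mutant over control libraries for the 49 genes tested, on log2(normalized counts + 1). Black bars are ± 1 SE of limma's fit and grey bars the range with 1 library left out. The dashed line is the median of all genes (-0.01). Most points lie right of 0, and the grey bars cross 0 in 12 genes, among them *Mcm6* and *Plk1*.

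Members whose promoter window held CHR letters and those without differed in how often mutant replicate 2 was highest. With CHR letters this library was highest in 22 of 24 members, with a median log2 difference of 0.35 between the mutant libraries, and without them in 9 of 15, with a median of 0.13. Against the controls, the members with CHR letters had a median of 0.39 and those without 0.12 on the log2 scale. With E2F letters mutant replicate 2 was highest in 9 of 11 members and without them in 22 of 28, with medians of 0.32 and 0.33 between the mutant libraries and of 0.28 and 0.37 against the controls. With CCAAT boxes it was highest in 25 of 31 members and without them in 6 of 8, with medians of 0.33 and 0.34 between the mutant libraries and of 0.30 and 0.44 against the controls. These are descriptions without a test, and the windows with CHR letters include those of all 4 genes of G2 and mitosis printed above. Among members without CHR letters only *Bub1* and *Nusap1* are genes of mitosis. The others belong to G1, the E2F factors, replication and deoxynucleotide synthesis. The part of a gene's role in the difference by CHR letters was not tested.

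Genes of the same pathway outside the 50 were followed in 4 further lists. Of 62 other mitosis genes tested, 45 had log2 fold changes above 0, against 49.0% of all genes. The median of the list was 0.16 and came to -0.01 without mutant replicate 2. Mutant replicate 2 was highest in 42 of the 62, against 22.4% of all genes. Both mutants were above both controls in 14 of the 62 and below both in 7, against 19.6% and 19.5% of all genes. *Ndc80*, a kinetochore protein that holds microtubules, was the gene of this list with an unadjusted p under 0.05, at 36 and 20 normalized counts in the controls and 60 and 70 in the mutants (1.24 ± 0.39, limma unadjusted p = 0.025). *Nek2*, a centrosomal kinase, stood at 81 and 52 against 101 and 115, and *Pbk*, a mitotic kinase, at 11 and 8 against 17 and 23. *Ncapd3*, a subunit of condensin II, went the other way at 358 and 357 against 317 and 284. Of 35 other replication genes, 28 were above 0 with a median of 0.16, which came to 0.04 without mutant replicate 2. In 12 of the 35 both mutants were above both controls and in 0 below both, against 19.6% and 19.5% of all genes. *Gins1* and *Gins3*, subunits of the GINS complex at the fork, stood at 12 and 15 against 20 and 32 and at 39 and 37 against 62 and 51. *Prim2*, a primase subunit, stood at 143 and 127 against 168 and 177, and *Uhrf1*, which recruits maintenance DNA methylation to copied DNA, at 82 and 79 against 96 and 148. No gene of the replication list had an unadjusted p under 0.05.

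Over 15 genes of the RB family, other E2F factors and DREAM the median log2 fold change was -0.03. This median was 0.04 without control replicate 2 and 0.02 with equal library totals. Fold changes were above 0 in 7 of 15, against 49.0% of all genes. Without overlap, 2 were higher and 3 lower, against 19.6% and 19.5% of all genes. *E2f4*, the E2F of resting cells, stood at 422 and 439 in the controls and 368 and 393 in the mutants, and the E2F partners *Tfdp1* and *Tfdp2* at 247 and 234 against 265 and 286 and at 604 and 696 against 536 and 594. *Mybl2*, the gene of B-Myb and itself an E2F target, stood at 21 and 24 against 28 and 41. Of 7 genes tested that are named as cyclin-dependent kinase inhibitors, 6 were above 0 (against 49.0% of all genes), with a median of 0.20. Their log2 fold changes include 0.007 in *Cdkn2b* and 0.94 in *Cdkn3*. In 3 of the 7, *Cdkn3* among them, both mutants were higher without overlap (against 19.6% of all genes). None of the 7 had a limma unadjusted p under 0.05. *Cdkn1a*, which encodes p21 and is induced by p53, stood at 181 and 280 in the controls and 267 and 321 in the mutants, and *Cdkn1c*, which encodes p57, at 203 and 245 against 277 and 277. *Cdkn1b*, which encodes p27 and marks resting cells, was the most abundant and level at 752 and 781 against 753 and 775. *Cdkn2b* stood at 93 and 92 against 90 and 96, *Cdkn2c* at 221 and 142 against 192 and 213, *Cdkn2d* at 110 and 105 against 119 and 128 and *Cdkn3*, a phosphatase of Cdk2 that is made in mitosis, at 12 and 6 against 13 and 23. *Cdkn2a* was below the minimum mean, at 3 to 7 in the controls and 5 to 13 in the mutants.

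**Figure D4:**
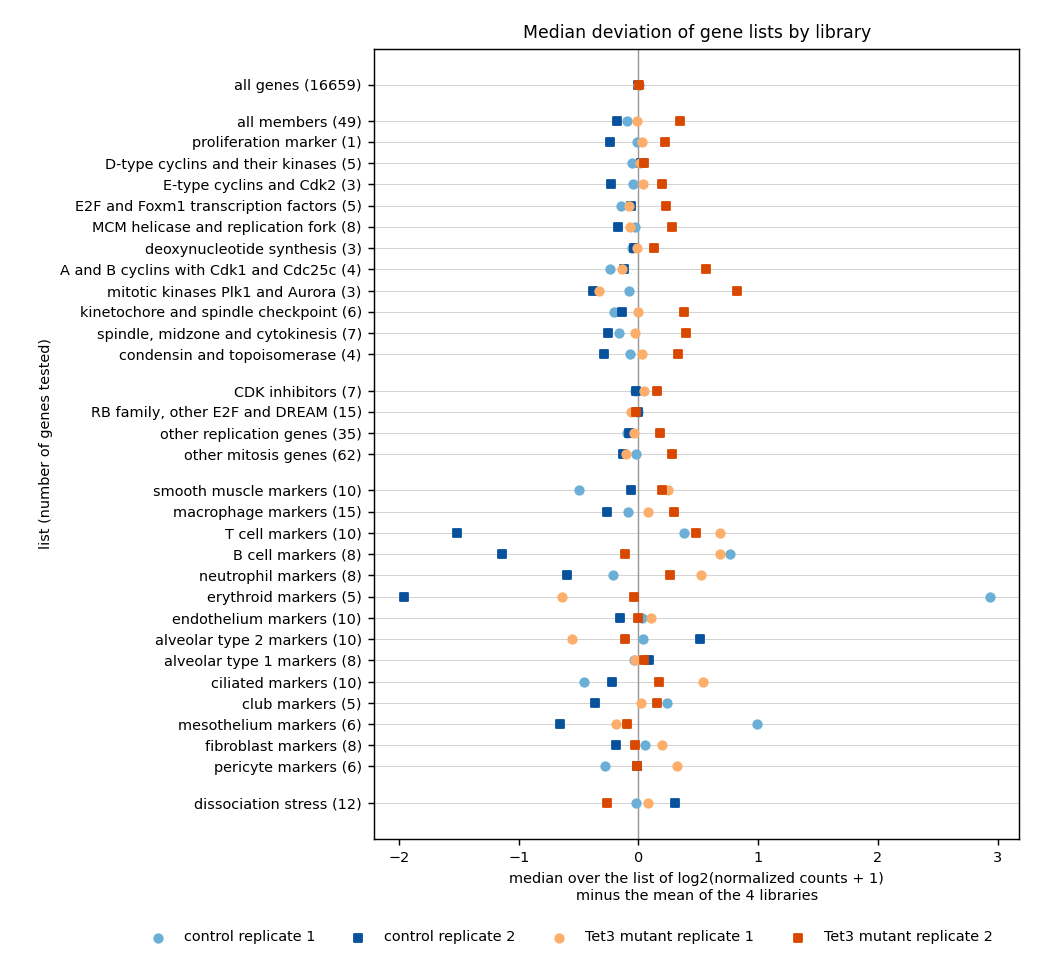
Median over each gene list (number tested in brackets) of log2(normalized counts + 1) minus the gene's mean over the 4 libraries, for each library. Mutant replicate 2 is rightmost for the 49 members (0.35) and for each of their 11 role groups. Macrophage markers have the same order of libraries as the members, while alveolar type 2 markers are highest in control replicate 2.

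Markers of macrophages had the same order of libraries as the members, and those of other cells had other orders. Of 15 macrophage markers, 14 had log2 fold changes above 0 and 12 were highest in mutant replicate 2, against 49.0% and 22.4% of all genes. Mutant replicate 2 was also the library highest in most members. The sums of the macrophage markers, 8118 to 8947 in the controls and 9886 to 11301 in the mutants, did not overlap. T cell markers summed to 1083 and 328 in the controls and 1168 and 1157 in the mutants, B cell markers to 1494 and 601 against 1237 and 1022, and neutrophil markers to 1122 and 836 against 1989 and 1394. Mutant replicate 1 was highest in 7 of 10 T cell and 5 of 8 neutrophil markers, and control replicate 1 in 5 of 8 B cell markers. Ciliated cell markers summed to 3150 and 3538 against 6288 and 4266 and were highest in mutant replicate 1 in 8 of 10. In 10 of 10 both mutants were higher without overlap, as in 19.6% of all genes. Control replicate 2 had the lowest sum in each of the macrophage, T cell, B cell and neutrophil lists. The same library had the lowest sum of erythroid, endothelial, fibroblast, club cell and mesothelial markers. Smooth muscle, pericyte, ciliated and alveolar markers had their lowest sums in other libraries. Control replicate 2 was also the library lowest in 24 of the 49 members and in 5506 of the 16659 genes tested. No macrophage, T cell, B cell or neutrophil marker in the table was at 0 in every library. A list of 12 genes induced by tissue dissociation summed to 9872 and 12437 in the controls and 10424 and 7867 in the mutants, lowest in mutant replicate 2. The part of these cells and states in the values of the cell cycle genes was not tested.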

How the data were processed

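RNA from tdTomato-positive lung SMCs was depleted of ribosomal RNA and made into stranded libraries by the authors, who sequenced single ends, trimmed with Trimmomatic 0.36, aligned with STAR 2.6.0c to GRCm38 (mm10) and counted with featureCounts (Subread 1.6.0), leaving out reads with several places or genes (versions per the submitters' processing notes). The deposited values are a score, namely normalized counts scaled with DESeq2 and rounded by the authors, not raw counts. Samples were grouped by genotype label. Reads per library were estimated by likelihood from missing and doubled low values.

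Values were compared as log2(value + 1), which understates changes of low genes, with limma 3.58.1 in R 4.3.3 (lmFit, eBayes with a mean-variance trend), for genes with a mean of at least 10, and Benjamini-Hochberg adjustment over all 16659 genes tested. An exact permutation test of 2 against 2 libraries cannot go below 0.333. Members and lists were chosen with earlier results of these data known. All members, all tested CDK inhibitors and the 4 genes of smallest p in each other pathway list are named; members with a mean under 50 are given by range. Coordinates are 1-based on GRCm38, exon lengths come from GENCODE M21 and promoter windows from RefSeq. Alternatives were pseudocounts of 0.5 and 8, minimum means of 1 and 50, TMM factors, equal totals, no trend, a replicate block and each library left out. Replicate numbers were not treated as pairs.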

Additional observations from a re-analysis of the deposited data

How the results depend on the processing

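No member passed the adjusted threshold under any alternative. Over all genes the count was 0 except without the mean-variance trend, where 1 gene, *Hal*, passed. The members' median log2 fold change was 0.15 to 0.49 with a library left out, and 0.29 to 0.36 under the other settings. Genes at an unadjusted p under 0.05 numbered 1112, 273 to 3366 with a library left out, and 1637 with the replicate number as a block. Members at that level numbered 3, and 0 to 5 with a library left out. With the block they numbered 4 (*E2f2* added, lower), and without the trend also 4 (*Ccnb2* and *Aurka* added, *Ccnd2* lost). Without control replicate 1 they were *Ccnd2*, *Cenpe*, *Smc2*, *Ccnd3* and *E2f2*, the last 2 lower, without mutant replicate 1 *Nusap1* and *Top2a*, and without mutant replicate 2 *Mcm6*, lower. A fit with 1 library in a group assumes that it varies like the other group. Same-numbered libraries deviated together with a Pearson correlation of 0.13 and a Spearman correlation of 0.12 over genes in 2 pairs, and nothing in the labels ties them. With equal library totals the share of higher genes among those at an unadjusted p under 0.05 was 69.2% in place of 57.4%, the median of all genes moved to 0.04 and that of the members to 0.36.

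Of the 49 members, 37 kept the sign of their fold change with each library left out and 12 did not. These ran from -0.22 to 0.84 in *Ccna2*, -0.36 to 0.15 in *Ccnd1*, -0.65 to 0.43 in *Cdk1*, -0.10 to 0.40 in *Cdk6*, -0.40 to 0.33 in *Cdc20*, -1.08 to 0.90 in *Plk1*, -0.077 to 1.07 in *Aurkb*, -0.65 to 0.26 in *Bub1*, -0.15 to 0.19 in *Bub1b*, -0.10 to 0.69 in *Mcm5*, -1.30 to 0.18 in *Mcm6* and -0.035 to 0.55 in *Prc1*. With equal totals *Cdc20* also changed sign, to 0.013. Standard errors of the members ran from 0.11 to 0.70 on the log2 scale, against their median fold change of 0.31.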
